A study of Mus musculus with 3 samples.

Results

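The Fas death receptor pathway was followed through 10 genes, chosen by name out of 32285 in the count matrices: the receptor Fas, its ligand Fasl, the second ligand Tnfsf10 (TRAIL) and its receptor Tnfrsf10b, the adaptor Fadd, the protease Casp8 and its inhibitor Cflar, the kinases Ripk1 and Ripk3, and the BH3 protein Bid. All 10 were found, each as a single row. Expression was measured by droplet single-cell RNA sequencing of glomeruli, the filtration units of the kidney, isolated by digestion of mouse kidneys.

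Each of 3 conditions was sequenced as 1 library. The model library came from female MRL/lpr mice, a lupus strain, included at about 16 weeks of age. The treated library came from MRL/lpr mice, also included at about 16 weeks of age. They were given 800000 stem cells of human umbilical cord origin (hUC-MSC) intravenously. Tissue for both the model and the treated library was taken at day 21. The control library is labelled only as a blank control. The study's other experiments took MRL/MpJ mice as controls, but neither the strain nor the age of this library, nor the number of mice behind any library, is stated in the sources used here. MRL/lpr mice carry the lpr mutation in Fas, so the model and treated libraries share the mutated receptor. With 1 library per condition no difference could be tested. Every 95% interval here covers counting error only, the spread between mice is unknown, and condition and library cannot be told apart.

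Fas is a cell surface receptor that, once bound by Fasl, gathers Fadd and Casp8 into a death-inducing complex. Cflar holds Casp8 back, Bid carries the signal to the mitochondrion, and Ripk1 with Ripk3 can turn signalling towards necroptosis. In lymphocytes this pathway removes activated and self-reactive cells, and mice without working Fas accumulate T cells that carry neither CD4 nor CD8.

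Barcodes with at least 1000 unique molecular identifiers (UMIs, each a counted RNA molecule) and at most 10% mitochondrial UMIs were kept as cells: 14109 in the model, 11018 in the control and 16586 in the treated library, with a median of 3716, 5069 and 2727 UMIs. The protocol states about 8000 captured cells per library. A cell entered a class when it held at least 3 of that class's 8 marker genes and at least 2 more than of any other class. None of the 10 genes is a marker. The endothelial-like class held 5117, 6041 and 6818 cells in the model, control and treated library. T cell-like cells numbered 558, 83 and 452 and macrophage-like cells 1245, 35 and 2276, so immune classes were thin in the control library. Between 8.25% and 30.7% of cells entered no class. Levels are the UMIs of a gene per 1000000 UMIs of the class (CPM). Barcodes with 1 to 100 UMIs, which hold free RNA rather than a cell, are given beside the levels. Free RNA made up an estimated 19.7% of endothelial-like UMIs in the model, 4.54% in the control and 20.8% in the treated library.

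The Fas gene lies on the plus strand of chromosome 19 (34290666 to 34327772, GRCm38, GENCODE M21, gene ENSMUSG00000024778). Its transcript Fas-201 has 9 exons, and the lpr insertion, a retrotransposon, sits in the second intron, which spans 34307279 to 34315178. A shorter annotated transcript, Fas-202, ends at 34309350 inside that intron. UMIs were counted per gene and do not tell transcripts that stop at the insertion from full-length ones, so the level of Fas checks neither the mutation nor the labels. Cflar (58711508 to 58758884) and Casp8 (58795374 to 58847503) are neighbours on chromosome 1, with 36489 bases between them. Fasl lies on the minus strand of the same chromosome (161780689 to 161788495).

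Start-site sequences are printed for Fas and Fasl, the receptor and ligand that define the pathway, and for Tnfsf10 and Ripk1, whose levels kept 1 order over the libraries in the endothelial-like clusters compared. Each runs 5′ to 3′ from 250 bases before to 50 bases after a RefSeq start site on GRCm38.p6, and the table used holds such sequences for 9 of the 10 members. Searched on both strands were the interferon-stimulated response element core (GAAA, any 2 bases, GAAA), the STAT-binding GAS motif TTCNNNGAA, the AP-1 site TGANTCA and the GC box GGGCGG. Capitals mark the matches. Positions are chr19:34290409-34290708 on the plus strand for Fas, chr1:161788446-161788745 on the minus strand for Fasl, chr3:27316827-27317126 on the plus strand for Tnfsf10 and chr13:34002624-34002923 on the plus strand for Ripk1, the second of its 2 listed starts, shown because it holds the interferon-response core.
Fas: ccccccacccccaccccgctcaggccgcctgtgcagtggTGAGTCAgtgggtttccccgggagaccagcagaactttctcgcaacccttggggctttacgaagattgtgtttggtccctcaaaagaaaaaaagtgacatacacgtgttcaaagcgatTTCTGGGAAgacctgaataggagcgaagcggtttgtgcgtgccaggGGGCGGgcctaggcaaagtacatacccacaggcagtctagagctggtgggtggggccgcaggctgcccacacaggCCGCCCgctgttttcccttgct
Fasl: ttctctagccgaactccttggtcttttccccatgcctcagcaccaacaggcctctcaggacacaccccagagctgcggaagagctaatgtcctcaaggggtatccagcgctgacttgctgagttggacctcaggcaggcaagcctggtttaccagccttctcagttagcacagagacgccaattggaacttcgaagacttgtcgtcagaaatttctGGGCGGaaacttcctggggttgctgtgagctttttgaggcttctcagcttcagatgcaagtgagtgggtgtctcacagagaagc
Tnfsf10: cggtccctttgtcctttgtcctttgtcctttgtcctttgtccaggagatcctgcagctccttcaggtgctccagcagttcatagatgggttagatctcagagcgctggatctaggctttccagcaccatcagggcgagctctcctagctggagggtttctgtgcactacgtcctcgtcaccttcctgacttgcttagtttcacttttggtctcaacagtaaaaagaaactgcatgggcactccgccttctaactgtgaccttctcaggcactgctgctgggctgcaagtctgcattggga
Ripk1: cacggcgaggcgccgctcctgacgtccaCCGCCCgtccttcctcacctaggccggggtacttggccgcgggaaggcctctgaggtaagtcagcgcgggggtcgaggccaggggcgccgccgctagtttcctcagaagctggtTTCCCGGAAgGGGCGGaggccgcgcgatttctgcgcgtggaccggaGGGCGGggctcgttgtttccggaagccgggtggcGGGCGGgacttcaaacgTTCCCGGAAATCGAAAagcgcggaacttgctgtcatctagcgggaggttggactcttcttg
The Fas sequence held 1 AP-1 site, 1 GAS motif and 2 GC boxes. Fasl held 1 GC box, and Tnfsf10 held none of these motifs. The Ripk1 sequence held 4 GC boxes, 2 GAS motifs and 1 interferon-response core, which overlaps the second GAS motif. The first listed start of Ripk1 (chr13:34002113-34002412) held 3 GC boxes and none of the other motifs. Among all 32851 start-site sequences of the table, 3.44% held the interferon-response core, 8.3% a GAS motif, 7.81% an AP-1 site and 35.7% a GC box. Of the members' 10 sequences, 2 held the core, 2 a GAS motif, 1 an AP-1 site and 7 a GC box. A match describes these letters and is not a measured binding site.

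Fas was highest in endothelial-like cells in all 3 libraries, among classes with at least 50 cells. Its level there was 413 CPM in the model library (95% interval 406 to 421, 10754 UMIs), 373 CPM in the control (366 to 379.9, 11944 UMIs) and 409.6 CPM in the treated library (402 to 417, 11528 UMIs). These cells held 72.3%, 82.7% and 78.3% of the Fas UMIs of each library, while they were 36.3%, 54.8% and 41.1% of its cells. Next came neutrophil-like cells in the model library, at 179 CPM (151 to 212), and in the treated library, at 200.01 CPM (164 to 242), and T cell-like cells in the control, at 109.7 CPM (75.9 to 153). The endothelial level stood above that next class by a log2 ratio of 1.21 in the model, 1.77 in the control and 1.03 in the treated library. The control library held only 28 neutrophil-like cells, at 300.04 CPM (175 to 480.4), which overlaps its endothelial level.

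T cell-like cells held Fas at 143 CPM in the model (123 to 165, 186 UMIs) and 84.04 CPM in the treated library (67.6 to 103, 90 UMIs), and in the model library their interval overlapped that of neutrophil-like cells. These levels and their order depend on how cells were grouped: the T cell-like cluster, number 11, held Fas at 268, 146 and 183 CPM in the model, control and treated library, and the neutrophil-like cluster, number 17, at 221 CPM in the model and 200.4 CPM in the treated library. Cluster 11 held 1021, 124 and 665 cells in the model, control and treated library, of which 553, 83 and 440 passed the T cell gate. RNA of other classes in its remaining cells was not tested. The macrophage-like clusters together held 79.1 CPM in the model and 102 CPM in the treated library, and the mesangial-like clusters 115, 66.2 and 74.1 CPM in the model, control and treated library. By the marker gate, mesangial-like cells, the contractile support cells of the capillary tuft, had 79.2, 47.5 and 50.2 CPM in the model, control and treated library. Macrophage-like cells had 36.1 CPM in the model and 45.9 CPM in the treated library. Proximal tubule-like cells of the model library had 34.3 CPM, within the macrophage interval, and collecting duct-like cells had 16.6 CPM in the model and 11.3 CPM in the control library. Barcodes with 1 to 100 UMIs held Fas at 136 CPM in the model, 113 CPM in the control and 168 CPM in the treated library.

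**Figure D1:**
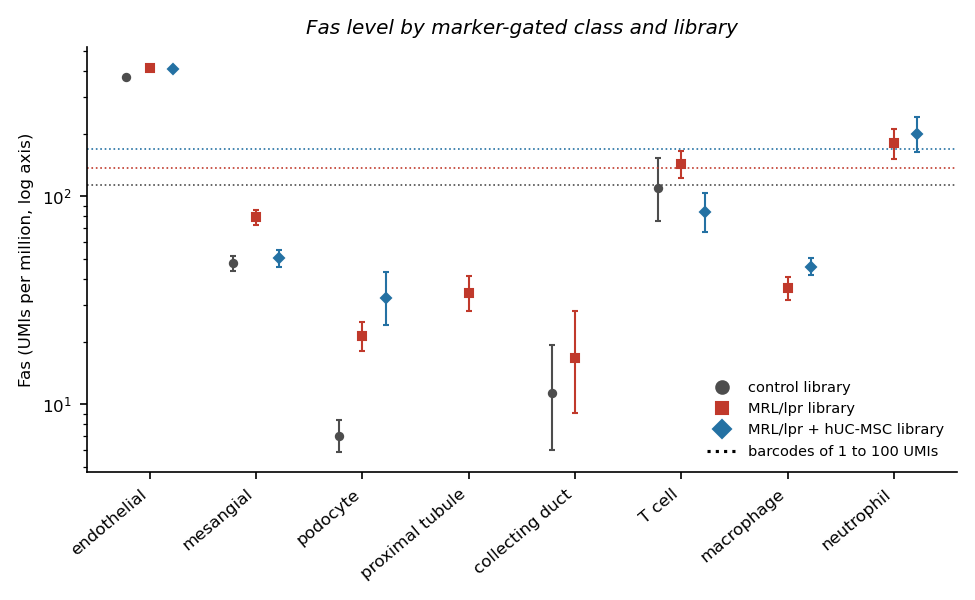
Level of Fas in CPM (log axis) in the classes with at least 50 cells, as points with exact 95% Poisson intervals, for the control, MRL/lpr (model) and MRL/lpr + hUC-MSC (treated) libraries. Dotted lines give the level in barcodes of 1 to 100 UMIs, and the endothelial-like points, at 373 to 413 CPM, lie above every other class plotted in each library.

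By the marker gate, podocyte-like cells, the epithelial cells that wrap the capillaries, held little Fas beyond free RNA. Their level was 21.3 CPM in the model (18.1 to 24.9), 7.06 CPM in the control (5.86 to 8.44) and 32.5 CPM in the treated library (23.97 to 43.1). At the free-RNA share estimated for each group (14.2%, 4.21% and 19.5%), free RNA alone would give 19.3, 4.76 and 32.9 CPM, within the interval in the model and treated libraries and below it in the control. The podocyte-like clusters together held 35.2, 29.9 and 38.4 CPM in the model, control and treated library. Cluster 2, with most of their cells, held 9.22, 4.56 and 26.3 CPM. Fas was higher in cluster 21, at 182 and 189 CPM in the model and control library, and in cluster 22, at 78.2 and 69.4 CPM. Cluster 22 was led by Mmp10, Il17f and Il17a. Of the 183 control cells of cluster 21, 46 passed the podocyte gate. Median depth in the model library was 10269 UMIs in cluster 21 and 10966.5 in cluster 22, against 7075.5 in cluster 2. Whether clusters 21 and 22 hold podocytes alone was not tested.

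Per cell, Fas was seen in most endothelial-like cells. A Fas UMI was found in 74.8% of them in the model library (73.6% to 76.01%, median depth 3830 UMIs), 77.3% in the control (76.2% to 78.3%, median 4337) and 67.3% in the treated library (66.1% to 68.4%, median 2893.5). In podocyte-like cells the shares were 10.3%, 3.03% and 15.7% at median depths of 6626, 6699 and 4458 UMIs. With every cell thinned to 1000 UMIs the endothelial shares were 33.2%, 29.96% and 32.8%, against 4.54%, 0.655% and 3.45% of podocyte-like cells. At least 5 Fas UMIs were held by 12.3%, 9.60% and 8.58% of all endothelial-like cells. Among T cell-like cells 25.4% had a Fas UMI in the model, 28.9% in the control and 15.9% in the treated library, at median depths of 1930, 2873 and 1750 UMIs, or 15.1%, 12.05% and 8.85% after thinning.

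The libraries were close in endothelial Fas. The log2 ratio of model over control was 0.15 (0.11 to 0.19), and the median over all 15738 genes compared in this class was 0.10, which leaves 0.044 relative to that median. Treated over model was -0.014 (-0.052 to 0.024), with a median of 0.12 over 16087 genes, or -0.14 relative to it. Both differences were far under 2-fold.

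Endothelial-like cells of each library lay mostly in different clusters. Cluster 1 held 68.1% of those of the model, cluster 5 held 47.0% of those of the control and cluster 0 held 56.4% of those of the treated library, so levels were also compared cluster by cluster. Over 5 endothelial-like clusters Fas ranged from 434 to 519 CPM in the model library and from 283 to 394 CPM in the control, and over the 4 with at least 50 treated cells from 446 to 499 CPM. It was higher in the model than in the control library in 5 of 5 clusters, and higher in the treated than in the model library in 3 of 4.

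**Figure D2:**
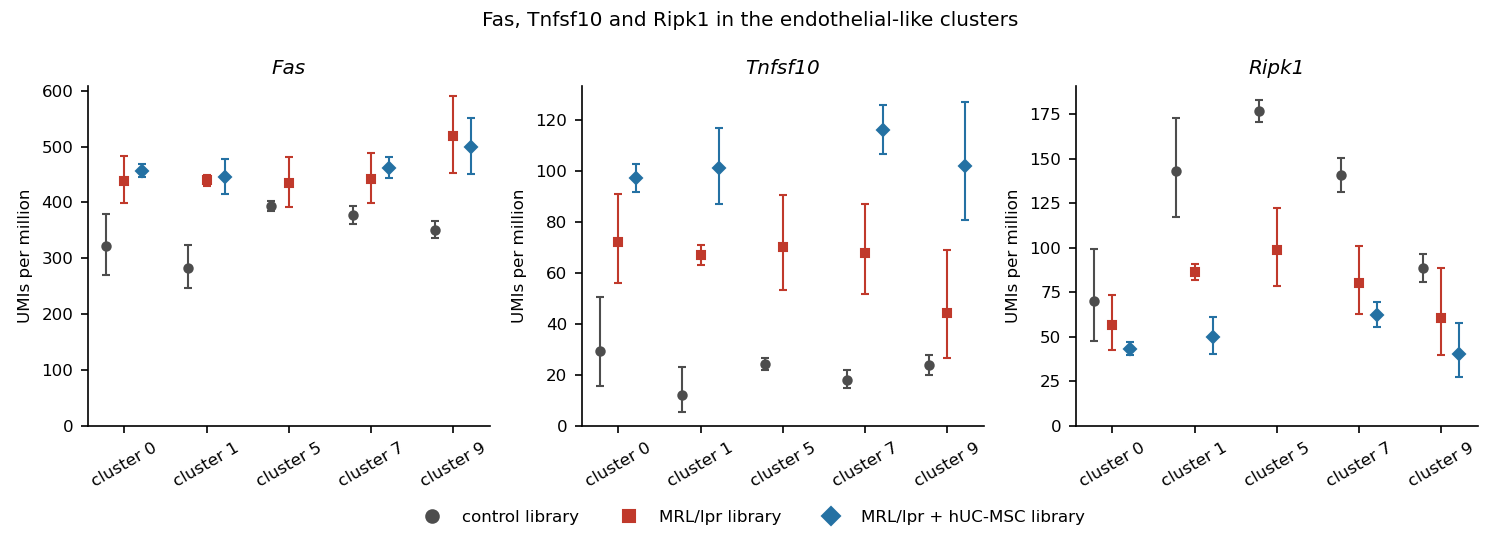
Levels of Fas, Tnfsf10 and Ripk1 in CPM in the 5 endothelial-like clusters, as points with exact 95% Poisson intervals, for groups of at least 50 cells in the control, MRL/lpr (model) and MRL/lpr + hUC-MSC (treated) libraries. Tnfsf10 stands in the order control, model, treated in each of the 4 clusters with all 3 libraries, and Ripk1 in the reverse order.

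Outside the endothelial-like class, Fas in mesangial-like cells was higher in the model than in the control library by a log2 ratio of 0.74 (0.56 to 0.92). Treated over model was -0.66 (-0.84 to -0.47), or -0.79 relative to the median of all genes. The free RNA expected there was 11.8, 4.47 and 11.6 CPM in the model, control and treated library. Mesangial-like cells of the treated library lay mainly in cluster 8 (88.7%), and those of the model library in clusters 6 and 14 (45.6% and 44.8%). Cluster 6 was led by the smooth muscle and renin genes Ren1, Myh11 and Akr1b7, and held 4.68% of the treated cells. Cluster 8 was led by the collagen gene Col3a1. Fas in the model and treated library was at 207 and 230 CPM in cluster 6, and at 109 and 74.3 CPM in cluster 8. In T cell-like cells treated over model was -0.76 (-1.14 to -0.39), or -0.61 relative to the median, and model over control was 0.38 (-0.16 to 0.95), an interval that spans 0. In the T cell-like cluster these were -0.55 (-0.74 to -0.36) and 0.88 (0.54 to 1.23), so that model over control no longer spans 0. That cluster also holds cells that did not pass the T cell gate, and their part in these ratios was not tested. Macrophage-like cells had 0.34 (0.12 to 0.57) for treated over model and neutrophil-like cells 0.16 (-0.22 to 0.53). Cluster 12 held 51.5% of the macrophage-like cells of the model and 40.8% of those of the treated library. Fas there was at 32.10 CPM in the model and 32.05 CPM in the treated library. It was at 82.8 and 98.5 CPM in cluster 3, and at 159.5 and 178.1 CPM in cluster 10. Cluster 12 was led by C1qc and C1qb, cluster 3 by Cd300e and Cd300ld, and cluster 10 by Mcpt8 and F13a1. How far this mix of clusters sets the ratio was not tested.

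Fasl, the ligand that triggers Fas, was found in T and NK cell-like cells. T cell-like cells held it at 172 CPM in the model (149.9 to 196, 224 UMIs), 164 CPM in the control (122 to 216, 51 UMIs) and 108 CPM in the treated library (89.5 to 129.9, 116 UMIs). NK cell-like cells, of which there were only 44, 21 and 29, held 97.1, 225 and 155 CPM from 13, 15 and 11 UMIs. No other class with at least 50 cells passed 6.40 CPM, the value of neutrophil-like cells in the model library from 5 UMIs. Barcodes with 1 to 100 UMIs held Fasl at 5.90, 2.02 and 2.56 CPM. A Fasl UMI was seen in 29.7% of T cell-like cells in the model, 43.4% in the control and 21.9% in the treated library, and in 17.4%, 20.5% and 11.9% after thinning to 1000 UMIs. In macrophage-like cells, which should lack the gene, the share was 0.0803% in the model (median depth 5100 UMIs) and 0.0879% in the treated library (median 3518).

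The log2 ratio of Fasl in T cell-like cells, model over control, was 0.061 (-0.38 to 0.53), an interval that leaves room for a difference either way. Treated over model was -0.66 (-1.0 to -0.33), or -0.51 relative to the median of all genes in these cells, which was -0.16. Of 5 members with at least 20 UMIs over both libraries in T cell-like cells, 0 were 2-fold higher or lower in the model than in the control, where 14.0% of all genes were higher and 5.94% lower. Of 8 members, 0 were 2-fold apart between treated and model, where 3.14% of all genes were higher and 9.42% lower.

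T cell-like cells were split by UMIs of Cd4 and of Cd8a or Cd8b1. Cells with neither made up 64.5% of them in the model, 38.6% in the control and 69.5% in the treated library, at median depths of 1703.5, 2193 and 1719 UMIs. At such depths a cell without a UMI may still express the gene. In the model library the cells with neither held Fasl at 214 CPM (181 to 252) and Fas at 196 CPM (164 to 231). Cells with a Cd8 UMI only had 116 CPM (87.1 to 151) of Fasl and 94.4 CPM (68.6 to 127) of Fas, lower and without overlap. In the control library the 32 cells with neither and the 45 with a Cd8 UMI only overlapped, at 180.3 and 150.1 CPM of Fasl and 108 and 108 CPM of Fas. In the model library the 43 cells with a Cd4 UMI only had 152 CPM (93.1 to 235) of Fasl, which overlaps both groups, and 38.1 CPM (12.4 to 88.9) of Fas.

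In the treated library the cells with neither had 108 CPM (86.3 to 135) of Fasl and 83.4 CPM (64.1 to 107) of Fas, below the same cells of the model library without overlap. Cells with a Cd8 UMI only had 130.1 CPM (83.3 to 194) of Fasl and 54.2 CPM (25.99 to 99.7) of Fas there, which overlaps their values in the model library. Within the treated library these cells and the cells with neither overlapped, and Fasl was the lower in the cells with neither. The 57 cells with a Cd4 UMI only had 76.6 CPM (36.7 to 141) of Fasl. Their Fas was at 130.2 CPM (75.8 to 208) from 17 UMIs, above the 38.1 CPM from 5 UMIs in the model library, the opposite direction to the cells with neither. Both Cd4 intervals overlap those of the model library, and whether the subsets differed from each other was not tested.

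**Figure D3:**
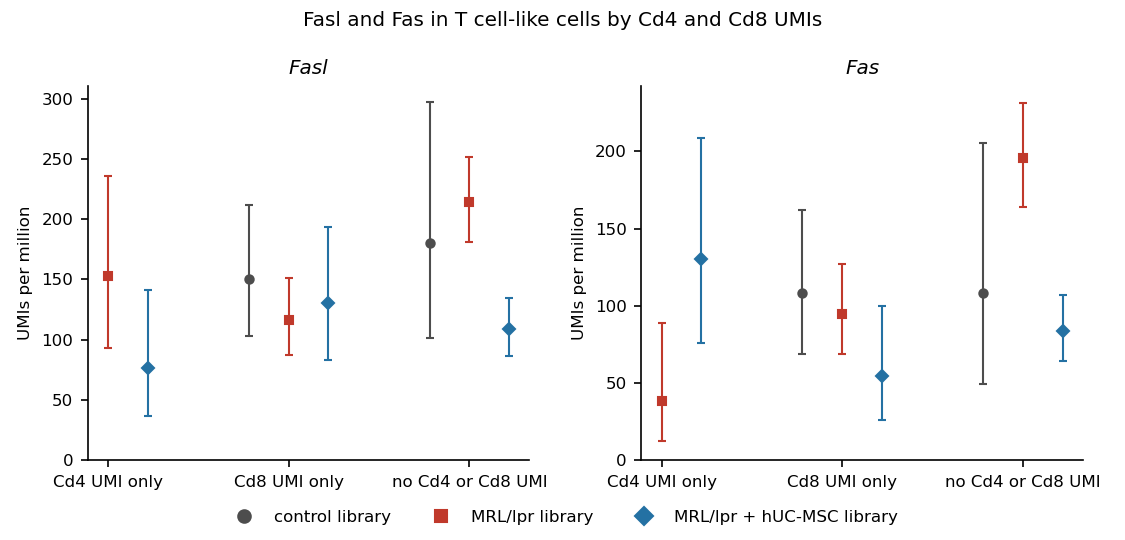
Levels of Fasl and Fas in CPM in T cell-like cells with a Cd4 UMI only, a Cd8a or Cd8b1 UMI only, or neither, as points with exact 95% Poisson intervals. In the cells with neither, the MRL/lpr (model) library stands at 214 CPM of Fasl and 196 CPM of Fas, above the MRL/lpr + hUC-MSC (treated) library at 108 and 83.4 CPM.

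RNA of endothelial cells was present in T cell-like cells, so their Fas UMIs were set beside endothelial markers. In the model library 51.4% of T cell-like cells with a Fas UMI and 49.5% of those without also held a UMI of an endothelial marker. The shares were 55.6% and 47.6% in the treated library, and 45.8% and 27.1% in the control library, from 24 and 59 cells. Free RNA would give 21.7, 3.46 and 20.01 CPM of Fas in T cell-like cells of the model, control and treated library, below the interval of the measured level in each.

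In endothelial-like cells Fasl was at 2.96, 0.687 and 1.24 CPM in the model, control and treated library, from 77, 22 and 35 UMIs, below the level of barcodes with 1 to 100 UMIs in each. At the estimated share, free RNA would give 1.16, 0.0917 and 0.532 CPM, below the measured level in each. The endothelial-like clusters held almost none of it, with 2, 2 and 4 Fasl UMIs in 4275, 6024 and 5175 cells of the model, control and treated library. Of the 62 cells of the marker gate with a Fasl UMI in the model library, 88.7% also held a T or NK cell marker, against 5.74% of those without. The shares were 87.5% against 0.929% in the control and 72.7% against 5.19% in the treated library. Scrublet scores marked 67.7% of the model cells with a Fasl UMI as doublets (barcodes with more than a single cell), against 12.0% of those without. The doublet shares were 81.25% against 6.34% in the control and 69.7% against 16.7% in the treated library. The log2 ratios of this Fasl level, 2.11 for model over control and -1.25 for treated over model, therefore stand beside T and NK cell markers and doublets. The part of these in the ratios was not tested.

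Tnfsf10, the second death ligand, was highest in endothelial-like and collecting duct-like cells, among classes with at least 50 cells. Endothelial-like cells held 61.9 CPM in the model (58.9 to 64.96, 1609 UMIs), 22.3 CPM in the control (20.7 to 24.03, 715 UMIs) and 95.6 CPM in the treated library (91.99 to 99.2, 2690 UMIs). The intervals did not overlap. Collecting duct-like cells had 70.2 CPM in the model (53.4 to 90.5) and 22.6 CPM in the control library (14.8 to 33.1), overlapping the endothelial level in both. In the treated library 59 UMIs in 40 such cells gave 158 CPM. T cell-like cells had 11.5, 6.45 and 12.1 CPM. Macrophage-like cells of the marker gate had 1.84 CPM in the model and 3.84 CPM in the treated library, beside the 2.01 and 2.94 CPM that free RNA would give. The macrophage-like clusters together held more, at 6.94 CPM in the model and 19.6 CPM in the treated library. Among them cluster 10, led by Mcpt8 and F13a1 and with Ccr2 and Ly6c2 among its leading genes, was highest, at 20.2 and 44.9 CPM. Cluster 12, led by C1qc and C1qb, held 4.65 and 7.58 CPM.

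Endothelial Tnfsf10 was 2.77-fold higher in the model than in the control library (log2 ratio 1.47, 1.34 to 1.60) and 1.54-fold higher in the treated than in the model library (0.63, 0.54 to 0.72). Relative to the median of all genes the log2 ratios were 1.37 and 0.50. The direction was the same in 5 of 5 endothelial-like clusters for model over control and in 4 of 4 for treated over model. The gap between model and control was widest in cluster 1, at 66.8 against 12.1 CPM, and narrowest in cluster 9, at 44.2 against 23.6 CPM, under 2-fold. A Tnfsf10 UMI was seen in 22.04%, 10.4% and 25.7% of endothelial-like cells of the model, control and treated library, and in 5.61%, 2.40% and 8.43% after thinning. The shares in macrophage-like cells were 1.04% in the model and 1.54% in the treated library. Free RNA would give 4.79, 0.303 and 7.78 CPM in endothelial-like cells.

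Lower levels of Tnfsf10 stood in the same order of libraries in mesangial-like and podocyte-like cells. Mesangial-like cells had 5.62 CPM in the model, 1.39 CPM in the control and 12.6 CPM in the treated library, with free RNA expected at 2.11, 0.264 and 2.58 CPM. Podocyte-like cells had 3.03, 0.292 and 13.5 CPM, against 3.45, 0.281 and 7.32 CPM expected from free RNA, so their model and control values are at the free-RNA level. Tnfrsf10b, the mouse receptor for Tnfsf10, was sparse: endothelial-like cells held 11.1 CPM in the model (9.87 to 12.5), 12.5 CPM in the control (11.3 to 13.8) and 14.1 CPM in the treated library (12.8 to 15.6). Its log2 ratios were -0.17 (-0.40 to 0.049) for model over control and 0.35 (0.13 to 0.57) for treated over model.

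**Figure D4:**
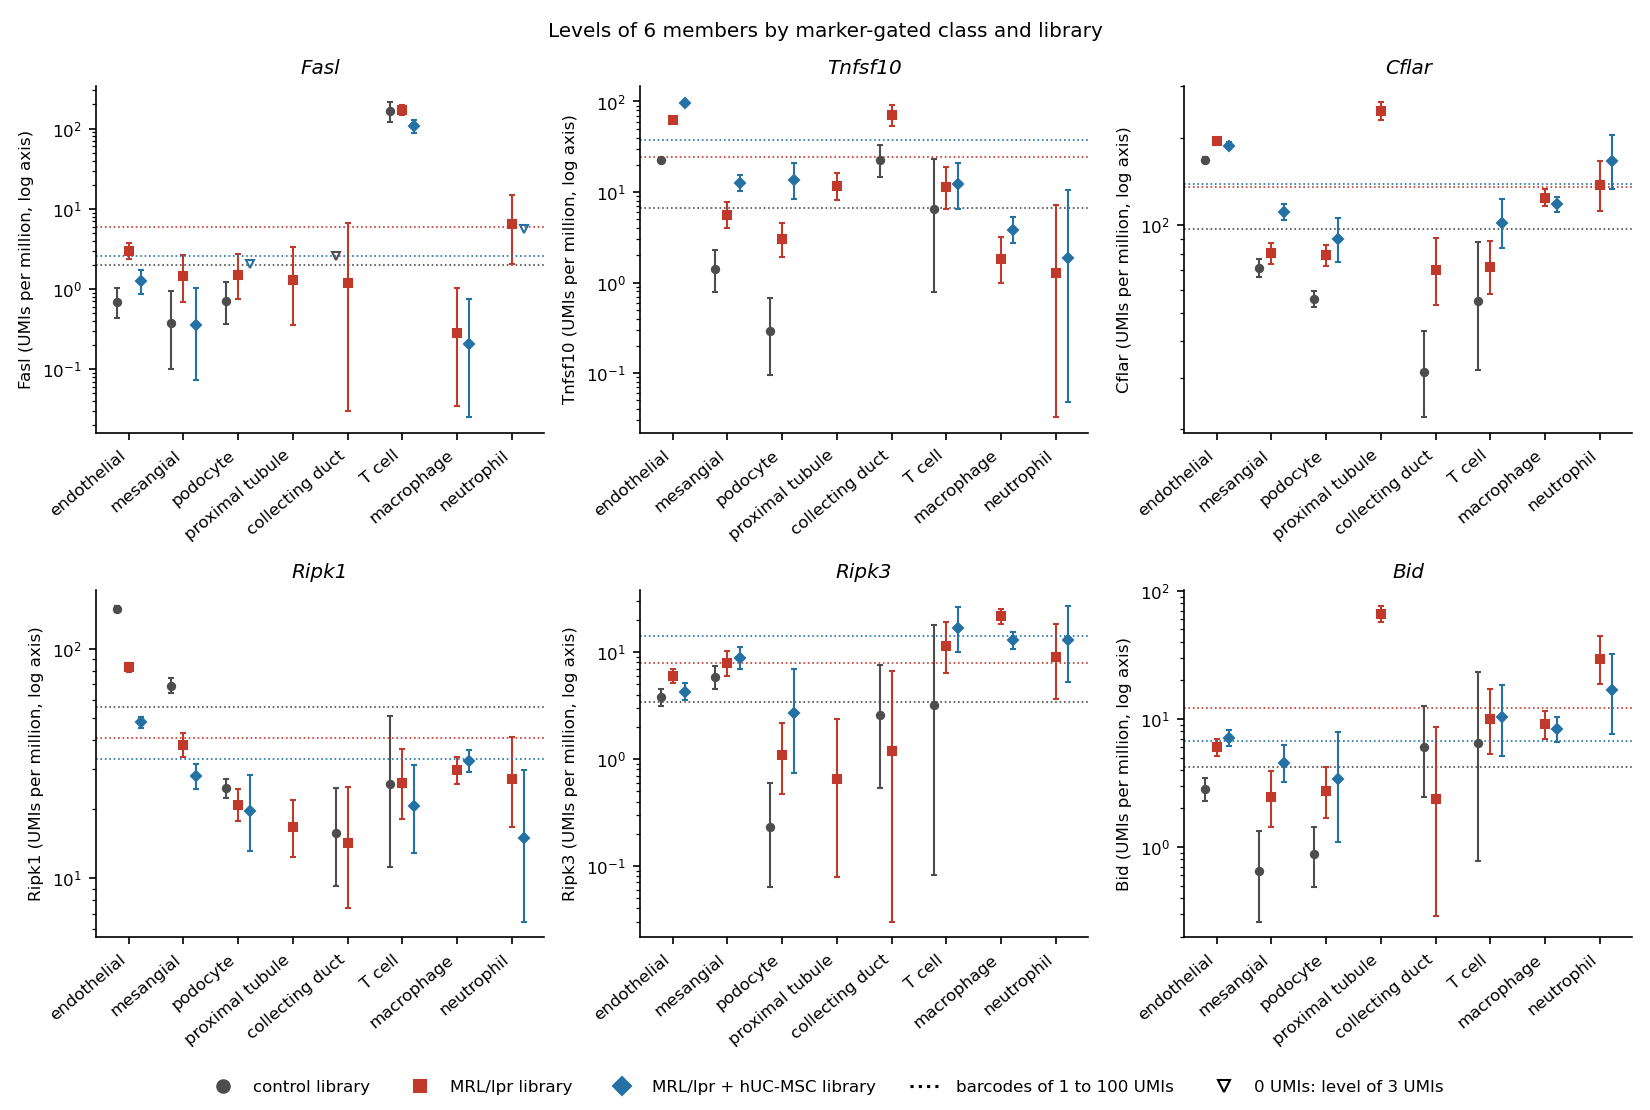
Levels of Fasl, Tnfsf10, Cflar, Ripk1, Ripk3 and Bid in CPM (log axes) in the classes with at least 50 cells, as points with exact 95% Poisson intervals, for the control, MRL/lpr (model) and MRL/lpr + hUC-MSC (treated) libraries. Dotted lines give barcodes of 1 to 100 UMIs, and open triangles mark classes with 0 UMIs at the level that 3 UMIs would give. Fasl is highest in T cell-like and Ripk1 in endothelial-like cells of each library, and Bid in proximal tubule-like cells of the model library, where that class has at least 50 cells.

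The adaptor Fadd was sparse, with 197, 305 and 240 UMIs in endothelial-like cells. Its level there was 7.57 CPM in the model, 9.53 CPM in the control and 8.53 CPM in the treated library, and no class with at least 50 cells passed 16.1 CPM. Casp8, the initiator protease, was at 106 CPM in endothelial-like cells of the model (102 to 110.4), 118 CPM of the control (114 to 121) and 91.4 CPM of the treated library (87.9 to 94.97). This was the highest class in each library, ahead of proximal tubule-like cells in the model at 89.2 CPM (78.9 to 100.4), where 1 cell held 62 of 273 UMIs, and overlapping T cell-like cells in the control at 77.4 CPM (49.6 to 115). Its log2 ratios in endothelial-like cells were small, at -0.14 (-0.22 to -0.073) for model over control and -0.22 (-0.30 to -0.14) for treated over model. Podocyte-like cells held 29.3, 15.1 and 36.6 CPM.

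Cflar, the Casp8-like inhibitor, had another order of classes than Fas. In the model library it was higher in proximal tubule-like cells, at 247 CPM (229.96 to 266), than in endothelial-like cells, at 194 CPM (189 to 199.9). The control library had 390.2 CPM in 36 proximal tubule-like cells, 1 of which held 63 of their 151 Cflar UMIs, and 168 CPM in endothelial-like cells. The treated library had 138 CPM in 40 proximal tubule-like cells and 187 CPM in endothelial-like cells. Macrophage-like cells had 124 CPM in the model and 118 CPM in the treated library. Mesangial-like cells had 80.2, 71.3 and 111 CPM, with a treated over model log2 ratio of 0.47 (0.31 to 0.62). These cells lay in different clusters in the model and treated library. Within cluster 8 Cflar was at 105 CPM in the model and 116 CPM in the treated library. Endothelial Cflar differed by 0.21 (0.16 to 0.27) between model and control and by -0.053 between treated and model, under 2-fold in both.

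Ripk1, the kinase at the fork between survival, apoptosis and necroptosis, was lower in endothelial-like cells of the model than of the control library and lower again in those of the treated library. Endothelial-like cells held 149 CPM in the control (145 to 153, 4769 UMIs), 82.9 CPM in the model (79.4 to 86.5, 2156 UMIs) and 47.7 CPM in the treated library (45.2 to 50.3, 1343 UMIs). The intervals did not overlap. The log2 ratios were -0.85 (-0.92 to -0.77) for model over control and -0.80 (-0.90 to -0.70) for treated over model, each short of 2-fold, or -0.95 and -0.92 relative to the median of all genes. Barcodes with 1 to 100 UMIs held 55.5, 40.6 and 32.98 CPM in the control, model and treated library. The direction was the same in 5 of 5 and 4 of 4 endothelial-like clusters, and among the control clusters number 5 was highest at 177 CPM. Mesangial-like cells kept this order, at 69.1, 38.2 and 27.8 CPM in the control, model and treated library, and so did the cells of no class, at 81.5, 47.3 and 32.8 CPM. By the marker gate, podocyte-like cells had 24.6, 20.9 and 19.6 CPM and T cell-like cells 25.8, 26.1 and 20.5 CPM, with overlapping intervals. The T cell-like cluster held 90.6, 48.9 and 30.8 CPM in the control, model and treated library, without overlap. The podocyte-like clusters held 33.0, 24.2 and 17.5 CPM, where the model and treated intervals overlap. By cluster these 2 classes thus ran in the endothelial order, but not clearly by the gate. The T cell-like cluster held 1021 model, 124 control and 665 treated cells, of which 553, 83 and 440 passed the T cell gate. The part of its remaining cells in this order was not tested, so the order is not read as one of T cells. Macrophage-like cells had 29.5 CPM in the model and 32.5 CPM in the treated library, a treated over model log2 ratio of 0.14 (-0.12 to 0.40), an interval that spans 0.

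Ripk1 overlaps Serpinb6a on the other strand, and whether counting used strand is not given in the sources used here. Serpinb6a had another order: in endothelial-like cells it was at 172 CPM in the control, 198 CPM in the model and 211 CPM in the treated library. Ripk3, the kinase that joins Ripk1 in necroptosis, was at 21.7 CPM in macrophage-like cells of the model library (18.4 to 25.4, 153 UMIs) and 12.9 CPM in those of the treated library (10.7 to 15.3, 124 UMIs). The log2 ratio of treated over model was -0.75 (-1.11 to -0.40). T cell-like cells had 11.5 CPM in the model and 16.8 CPM in the treated library, with overlapping intervals. In endothelial-like cells Ripk3 was at 5.998, 3.81 and 4.26 CPM in the model, control and treated library, beside 7.98, 3.42 and 14.1 CPM in barcodes with 1 to 100 UMIs.

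Bid, which Casp8 cleaves on the way to the mitochondrion, was highest in proximal tubule-like cells of the model library, among its classes with at least 50 cells. It was at 66.3 CPM there in the model (57.5 to 76.1, 397 cells), 49.1 CPM in the control (36 cells) and 69.1 CPM in the treated library (40 cells). Neutrophil-like cells followed in the model library at 29.5 CPM (18.7 to 44.2), below the tubule by a log2 ratio of 1.17 (0.55 to 1.86). Endothelial-like cells had 5.998, 2.84 and 7.14 CPM in the model, control and treated library, against 12.1, 4.20 and 6.72 CPM in barcodes with 1 to 100 UMIs and 2.39, 0.190 and 1.40 CPM expected from free RNA at the estimated share. Bid overlaps Bcl2l13 on the other strand, which was at 19.1, 20.1 and 19.4 CPM in endothelial-like cells.

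Counted over the members, 3 of 10 (Fasl, Tnfsf10 and Bid) were at least 2-fold higher in endothelial-like cells of the model than of the control library, where 16.1% of all 15738 genes were, and 0 were lower, where 5.53% were. Their median log2 ratio was 0.18, beside 0.10 over all genes. Of these 3, Tnfsf10 alone lay above the level of barcodes with 1 to 100 UMIs in both libraries, and all 3 lay above the free RNA expected at the share estimated for the class. Most endothelial-like cells with a Fasl UMI also held a T or NK cell marker. With the endothelial-like clusters in place of the marker gate, Tnfsf10 alone stayed past 2-fold: Bid had a log2 ratio of 0.75 (0.33 to 1.17), and Fasl had too few UMIs to compare. Between treated and model 1 of 10, Fasl, was at least 2-fold lower, where 4.59% of 16087 genes were, and 0 were higher, where 6.29% were. Their median was -0.033, beside 0.12.

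**Figure D5:**
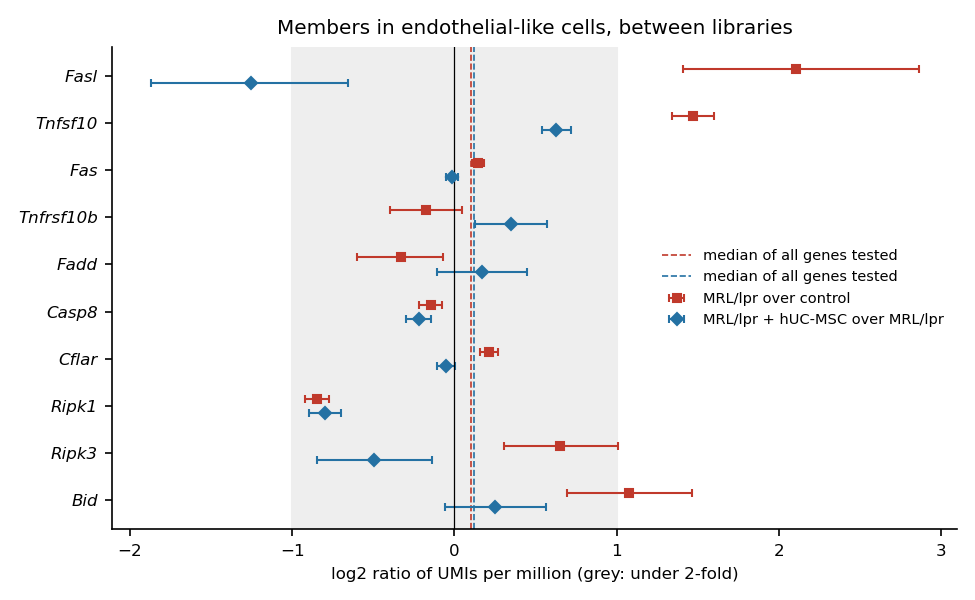
Log2 ratios of the 10 members in endothelial-like cells, MRL/lpr over control and MRL/lpr + hUC-MSC over MRL/lpr, with exact conditional 95% intervals. Dashed lines are the medians of all genes compared, the grey band is under 2-fold, and both comparisons share the MRL/lpr library. Ripk1 is negative in both, at -0.85 and -0.80, and Fas is near 0.

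In mesangial-like cells 2 of 8 members compared, Tnfsf10 and Bid, were 2-fold higher in the model than in the control library, where 10.5% of all genes were, and 0 lower, where 6.43% were. In treated over model 1 of 8, Tnfsf10, was higher, where 4.17% were, and 0 lower, where 5.26% were. With mesangial-like clusters in place of the gate its log2 ratio was 0.84 (0.49 to 1.21), under 2-fold, and within cluster 8 it was at 20.5 CPM in the treated and 18.1 CPM in the model library. In podocyte-like cells 5 of 9 (Fas, Fasl, Tnfsf10, Tnfrsf10b and Bid) were higher in the model than in the control library, where 14.7% were, and 0 lower, where 5.18% were. In treated over model 2 of 8 (Tnfsf10 and Tnfrsf10b) were higher there, where 5.01% were, and 0 lower, where 4.52% were. With free RNA subtracted, Fas (model over control) was the only one of these that could still be compared, at a log2 ratio of -0.073. With podocyte-like clusters 2, 21 and 22 pooled in place of the gate the counts were 2 and 1.

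In collecting duct-like cells 3 of 5 (Casp8, Cflar and Tnfsf10) were 2-fold higher in the model than in the control library, where 9.19% of all genes were, and 0 lower, where 4.31% were. Of the 47 Casp8 UMIs of the model library there, 1 of 104 cells held 26, and of the 26 Tnfsf10 UMIs of the control library 1 cell held 9. In cluster 20, the collecting duct-like cluster, Casp8 was at 31.2 CPM in the model and 24.7 CPM in the control library and Cflar at 92.8 and 59.7 CPM, neither 2-fold apart. Tnfsf10 was at 75.9 and 19.5 CPM in that cluster. Macrophage-like cells had 1 of 8, Tnfsf10, higher in treated over model, where 3.76% were, and 0 lower, where 5.76% were. Neutrophil-like cells had 0 of 5 in either direction, where 2.14% were higher and 7.75% lower. In erythroid-like cells 2 of 2 members compared were higher in the model than in the control library and 1 of 2 in treated over model. Most of all their genes were, at 75.2% and 72.3%, and 1.51% and 1.47% were lower, so nothing is read from these cells.

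Other genes of the pathway were taken from 5 lists with 57 genes in all, of which 56 could be compared in endothelial-like cells. Between model and control 6 were at least 2-fold higher, where 16.1% of all genes were, and 0 lower, where 5.53% were. Those higher were 2 of 10 other death receptors, ligands and decoys, 1 of 19 genes of the receptor complex and its ubiquitin control, 3 of 12 of the BCL2 family, 0 of 4 necroptosis and pyroptosis effectors and 0 of 11 apoptosome and executioner genes. The 6 were Bcl2a1b, Bcl2a1d, Pmaip1, Tnfaip3, Tnfrsf21 and Tnfsf15, and the median was 0.13, beside 0.10 over all genes. At the upper end were Bcl2a1b, a BCL2-family survival gene (31.8 against 0.9996 CPM, log2 ratio 4.99, 4.48 to 5.55), and Tnfsf15, a TNF-family ligand (2.77 against 0.125 CPM, from 72 and 4 UMIs). Bcl2a1b was at 150.3 CPM in barcodes with 1 to 100 UMIs of the model library and 9.32 CPM of the control. At the estimated share, free RNA would give 29.6 CPM of Bcl2a1b in the model and 0.423 CPM in the control library. That is close to its whole level in the model library. Free RNA would also give 5.40 and 0.127 CPM of Bcl2a1d, and 27.1 and 1.07 CPM of Tnfaip3. At the lower end were Bcl2l1, which encodes BCL-XL (77.8 against 152 CPM, -0.96), and the adaptor Traf5 (33.6 against 62.98 CPM, -0.91).

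Between treated and model 2 of 56 listed genes were higher in endothelial-like cells, where 6.29% of all genes were, and 1 lower, where 4.59% were, with a median of 0.075. Bcl2a1d (14.99 against 5.50 CPM) and its near-identical paralog Bcl2a1b (73.1 against 31.8 CPM) were higher, and are uncertain because reads may be split between them. Free RNA at the estimated share would give 7.84 and 5.40 CPM of Bcl2a1d and 46.9 and 29.6 CPM of Bcl2a1b in the treated and model library, close to the whole level of each in the model library. Bbc3, the BH3-only gene that encodes PUMA, was lower (17.5 against 41.3 CPM, -1.24, -1.39 to -1.08).

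In mesangial-like cells, of 56 listed genes compared, 8 were 2-fold higher between model and control, where 10.5% of all genes were, and 2 lower, where 6.43% were, with a median of 0.094 beside -0.016 over all genes. Higher were Bcl2a1b, Bcl2a1d, Otulin, Tnfaip3, Tnfrsf11b, Tnfrsf21, Tnfsf15 and Zbp1, and lower Tnfrsf23 and Tnfrsf26. How much of these mesangial values is free RNA was not tested gene by gene. Between treated and model 3 were higher (Dffa, Tnfrsf26 and Zbp1) and 4 lower (Birc3, Tnf, Tnfaip3 and Tnfsf15), where 4.17% of all genes were higher and 5.26% lower, with a median of 0.084 beside 0.13. Tnfaip3, which encodes the ubiquitin editor A20, was at 405 CPM in the model (2808 UMIs), 77.7 CPM in the control and 74.4 CPM in the treated library, with a treated over model log2 ratio of -2.44 (-2.57 to -2.32). Tnfsf15 was at 41.8, 6.23 and 7.73 CPM in the model, control and treated library. Both were higher in the model library than in either other library. The mesangial-like cells of the model and treated library lay mainly in different clusters, and the listed genes were not compared within a cluster. Zbp1, a nucleic acid sensor that can engage Ripk3, was at 8.79, 1.58 and 28.5 CPM.

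T cell-like cells allowed 41 of the 57 genes to be compared between model and control, of which 6 were higher, where 14.0% of all genes were, and 3 lower, where 5.94% were. Between treated and model 45 could be compared, of which 3 were higher, where 3.14% of all genes were, and 6 lower, where 9.42% were. The medians were 0.15 and -0.15, beside 0.022 and -0.16 over all genes. In the first comparison Bbc3, Gsdmd, Map3k7, Tnf, Tnfrsf1a and Tnfrsf25 were higher and Bak1, Tradd and Xiap lower. In the second Bak1, Bcl2a1d and Tnf were higher and Bbc3, Bcl2l11, Bik, Mcl1, Tnfrsf25 and Tnfrsf26 lower. Bbc3 was at 28.4 CPM in the model, 6.45 CPM in the control and 7.47 CPM in the treated library, from 37, 2 and 8 UMIs. Bak1, a pore-forming BCL2-family gene, was at 9.96, 35.5 and 24.3 CPM, from 13, 11 and 26 UMIs. In macrophage-like cells 1 of 54, Bik, was higher in treated over model, where 3.76% of all genes were, and 2 lower, where 5.76% were. Gsdme, a gasdermin, was among the lower genes (13.3 against 34.4 CPM, log2 ratio -1.37, -1.69 to -1.06).

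In podocyte-like cells 10 of 53 listed genes were 2-fold higher between model and control, where 14.7% of all genes were, and 1 lower, where 5.18% were, with a median of 0.046 beside -0.0078. Higher were Bbc3, Bcl2a1b, Bcl2a1d, Bik, Endog, Otulin, Pmaip1, Tnf, Tnfaip3 and Zbp1, which include 5 of 12 of the BCL2 family, and lower was Tnfrsf25. Between treated and model 1 of 51, Bcl2a1d, was higher, where 5.01% were, and 2 (Bbc3 and Dffb) were lower, where 4.52% were. How much of these podocyte values is free RNA was not tested gene by gene. Collecting duct-like cells had 3 of 38 higher between model and control (Bcl2a1b, Otulin and Tnfrsf1a), where 9.19% were, and 0 lower, where 4.31% were. Free RNA was not set beside these genes either. Neutrophil-like cells had 2 of 37 higher between treated and model (Bak1 and Ltbr), where 2.14% were, and 2 lower (Bad and Bbc3), where 7.75% were.

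Genes whose levels ran most like those of the receptor and ligands were sought over the 22 groups (a class in a library) with at least 50 cells, by Pearson correlation of log2(CPM + 10) across 14077 genes. The groups share libraries and free RNA, so the coefficients describe likeness of pattern only. For Fas they were Fam117b (0.899), Gbp9 (0.890) and Ppp1r18os (0.890). For Fasl they included Tbx21 (0.996), which encodes T-bet, and P2ry10 (0.993). For Tnfsf10 they were Fzd6 (0.902), Capn5 (0.898) and Dnm3 (0.890).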

How the data were processed

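The authors deposited 1 gene-by-barcode matrix of raw UMI counts per library. Their processing notes name Cell Ranger, STAR and mm10. Their stated cell filters were 200 to 3000 genes, at most 10% mitochondrial and at most 5% ribosomal genes, with doublets removed by DoubletFinder; the matrices still hold barcodes outside these limits. Library totals were 103319588 (model), 94903163 (control) and 90812138 (treated) UMIs. Cells needed at least 1000 UMIs and at most 10% mitochondrial UMIs, and doublets were removed only as an alternative. The ribosomal limit was not applied, since with 200 to 3000 genes it leaves 886, 499 and 536 cells. Pairs of libraries shared 35 to 61 cell barcodes. Among the 10 genes of highest fold, no class with at least 50 cells had more markers of another class than of its own.

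Levels were given exact Poisson, shares exact Clopper-Pearson and ratios exact conditional binomial intervals (Python 3.11.15, scipy 1.17.1), at 95% and for counting error only, and were checked on simulated data. A ratio needed 50 cells in both libraries and a gene 20 UMIs over both. Of the genes in the files, 99.6% matched GENCODE M21. Free RNA was estimated from markers of other classes. Clusters came from scanpy 1.11.5 and leidenalg 0.10.2, without the 10 members. All members are named, and of the pathway lists values are given for at most the 2 highest and 2 lowest ratios per comparison; other listed genes past 2-fold are named only, and were chosen after their values were seen. The members, lists and class gate were chosen with earlier results of these data known. Some genes that this rule would name are not reported here.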

Additional observations from a re-analysis of the deposited data

Results flagged for a closer look

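Fas differed in direction between classes in the comparison of the treated with the model library, although the difference between the classes was not tested. The log2 ratio of treated over model was 0.61 in podocyte-like cells, -0.66 in mesangial-like cells and -0.76 in T cell-like cells. These classes were singled out because their ratios were at least 1.5-fold, with intervals on opposite sides of 0. The podocyte value moved with free RNA, which would give 19.3 and 32.9 CPM of the 21.3 and 32.5 CPM measured in the model and treated library. With clusters in place of the gate the podocyte ratio was 0.13 (-0.31 to 0.54), an interval that spans 0. The mesangial and T cell ratios were then -0.63 and -0.55. The mesangial-like clusters were 8 and 14, with 1983 treated cells in cluster 8 and 683 model cells in cluster 14. Within cluster 8 Fas was at 109 CPM in the model and 74.3 CPM in the treated library. Cluster 6, which they leave out, held 45.6% of the gated model cells, with Fas at 207 and 230 CPM. The T cell-like cluster holds cells that did not pass the T cell gate. How far these sets of cells set the ratios was not tested.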

How the results depend on the processing

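No paired analysis was possible because each condition has 1 library. Spread between mice is not measured, classes with under 50 cells gave no ratio, and members under 20 UMIs could not be compared. The count of members past 2-fold in endothelial-like cells, model over control, was 3, and was 1 with cells grouped by Leiden clusters; it was 2 to 3 under every other alternative. For treated over model it was 1, and became 0 with cells of 200 to 3000 genes, with Leiden clusters and with each cell weighted equally, and 2 with free RNA subtracted. Endothelial Fas, model over control (0.15), was 0.19 without Scrublet doublets, 0.22 with Leiden clusters, 0.31 with free RNA subtracted and 0.044 when centred on the median of all genes. Treated over model (-0.014) was 0.056 with Leiden clusters and -0.14 when centred, so its sign is not fixed. Endothelial Tnfsf10, model over control (1.47), was 1.61 with free RNA subtracted, and treated over model (0.63) was 0.50 when centred. Podocyte Fas, model over control (1.59), reversed to -0.073 with free RNA subtracted, and was 0.24 with Leiden clusters, 2.00 with the stricter gate and 2.70 to 2.92 with equal cell weights, 200 to 3000 genes or Scrublet doublets removed. The Leiden value pools clusters 2, 21 and 22. Fas was at 9.22 CPM in the model and 4.56 CPM in the control library in cluster 2. It was at 182 and 189 CPM in cluster 21, and at 78.2 and 69.4 CPM in cluster 22. Whether clusters 21 and 22 hold podocytes alone was not tested. The podocyte count of members past 2-fold (5) ran from 0 with free RNA subtracted, 1 at 100 UMIs and 2 with the stricter gate or Leiden clusters to 6, and for treated over model (2) from 0 to 3. In erythroid-like cells, model over control, Leiden clusters reversed Fas to -0.64 and Cflar to -0.57, and centring reversed Cflar, treated over model, to -0.10. The Fasl ratios of T cell-like cells moved by less than their counting intervals, from -0.31 to 0.25 for model over control and from -0.77 to -0.45 for treated over model. Of the levels compared, 71 moved beyond their counting interval with Leiden clusters and 149 did not. Fas in the T cell-like cluster then stood at 268 CPM in the model library, above the neutrophil-like cluster at 221 CPM. That T cell-like cluster held 1021 model cells, of which 553 passed the T cell gate. By the gate, T cell-like cells of the model library held Fas at 143 CPM and neutrophil-like cells at 179 CPM, with overlapping intervals. The part of the cells that did not pass the gate in the 268 CPM was not tested.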
